A study of Homo sapiens with 26 samples.

Results

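The 4 libraries harvested before any treatment in the first experimental batch were compared by TET2 genotype in TF-1 cells, a human erythroleukemia line whose growth depends on the cytokine GM-CSF. They are 4 of 26 libraries in the series, taken by genotype, batch and harvest as labelled and by no measured value. The KO group holds clones F4 and A12, labelled TET2 -/-. The WT group holds clones A7 and C4, labelled wild-type for TET2. Each library is 1 clone harvested once, with neither 5-azacytidine nor DMSO, so a difference between genotypes is a difference between 2 pairs of clones of 1 cell line. Other libraries of these clones were harvested later, at 72 h or 264 h after the first of 3 daily doses of 200 nM 5-azacytidine (Aza) or DMSO vehicle, and were used here to set values side by side. A second batch holds KO clones alone.

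TET2 encodes a dioxygenase that oxidises 5-methylcytosine in DNA, a step on the way to loss of the methyl mark. Loss of TET2 is common in clonal hematopoiesis and myeloid malignancy, and it alters the balance between erythroid, mast cell and monocytic differentiation in blood progenitors. Erythroid cells make hemoglobin from alpha-like globins, encoded on chromosome 16, and beta-like globins, encoded on chromosome 11, with heme as the cofactor that binds oxygen.

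Values below are from a table of read pairs per gene. Each of the 4 libraries held 26493089 to 29630730 counts over genes, with 25768 to 26416 genes at 1 count or more. Values are given as CPM, the share of a library's counts scaled to a common total, with TMM factors as a correction for differences in RNA composition. A count of 3, taken as the floor of detection, corresponded to 0.10 to 0.11 CPM, and intervals and floors here cover counting error only. A gene was called when edgeR's quasi-likelihood test gave a Benjamini-Hochberg adjusted p under 0.05 over all genes tested. DESeq2, run on the same 4 libraries, is named wherever its calls are used. P-values measure the spread between these clones, each with 1 library. On simulated data with the spread of each gene as estimated here, edgeR made more false calls than its threshold allows.

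The WT libraries went against their clone labels. Over 100 genes of chromosome 12 below 20 Mb, the library labelled A7 was above the library labelled C4 by a median log2 of 0.526 before treatment. In the 4 later conditions the same difference between clones of those names was -0.599 to -0.550. Over 3000 variable genes, the difference between A7 and C4 before treatment correlated with the later ones at -0.801 to -0.754, whereas the difference between F4 and A12 correlated at 0.811 to 0.855 in the 3 conditions that hold both. The genes share libraries within each value, so these correlations are descriptions. Both libraries are WT under either order of names, so the comparison of genotypes is the same, and A7 and C4 below mean the libraries labelled so.

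TET2 RNA was at 32.1 CPM in KO F4 and 40.2 CPM in KO A12, against 28.6 and 29.2 CPM in WT A7 and C4. It was not lower in KO, and the difference was not called (log2 0.34, SE 0.14, edgeR adjusted p = 0.591). The count covers all TET2 exons on chromosome 4 (106067032 to 106200973, hg19), so it does not check a small deletion, and genotypes are used as labelled. The other TET and DNA methyltransferase genes stood close together in KO and WT. TET1 was at 16.9 and 17.5 CPM in KO, against 20.1 and 18.3 CPM in WT. TET3, DNMT1 and DNMT3B overlapped between genotypes, and DNMT3A, a de novo methyltransferase, was at 20.7 and 21.1 CPM in KO and 22.9 and 22.2 CPM in WT. Of 19 tested genes of the DNA methylation machinery, 0 were called by edgeR and 0 by DESeq2, while 1 (TET2) had an unadjusted edgeR p under 0.05, and the median log2 was -0.05.

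Of 16560 genes tested, 9 were called, which is 0.0543% of the genes. In KO, 7 were higher (0.0423%) and 2 were lower (0.0121%). KO and WT values did not overlap for any of the 9, nor for 37.4% of all genes. An unadjusted p under 0.05 was reached by 1322 genes (7.98%). The number of calls depended on single libraries, but a fit without 1 library takes the spread of the lone library from the other genotype. With each library left out, the log2 fold was 4.15 to 4.59 for IGFBP7 and -1.80 to -1.49 for HBA2. The 9 genes were picked in these same libraries, so this is no separate support. Of the 7 higher genes, IGFBP7, ZDHHC23, PLPP4, EDIL3 and MUC19 averaged under 1 CPM in WT, while PTPN14 and TRD-AS1 were expressed in both genotypes.

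IGFBP7, an extracellular binding protein of the IGF system (chromosome 4, 57896939 to 57976551), was at 8.61 and 6.38 CPM in KO F4 and A12, against 0.315 and 0.40 CPM in WT A7 and C4. Every KO value lay far above every WT value. The log2 fold was 4.39 (SE 0.32, edgeR adjusted p = 0.0123), the lowest adjusted p among the 7 higher genes. ZDHHC23, a palmitoyltransferase that attaches fatty acids to proteins (chromosome 3, 113666748 to 113684248), was at 12.1 and 10.9 CPM in KO, against 0.595 and 1.27 CPM in WT (log2 3.64, SE 0.34, edgeR adjusted p = 0.0358). PLPP4, a lipid phosphate phosphatase (chromosome 10, 122216466 to 122349367), was at 4.10 and 3.34 CPM in KO, against 0.210 and 0.0667 CPM in WT, where it had 6 and 2 counts (log2 4.73, SE 0.47, edgeR adjusted p = 0.0358). The ratio of pooled counts was 27.3, with a 95% counting interval of 13.6 to 64.1.

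EDIL3, a secreted integrin ligand (chromosome 5, 83236373 to 83680611), was at 1.67 and 2.16 CPM in KO, against 2 counts and 1 count in WT. Its ratio of pooled counts was 37.3 (95% counting interval 12.4 to 184), and its edgeR adjusted p was 0.0371. MUC19, a gel-forming mucin (chromosome 12, 40787197 to 40964632), was at 1.74 and 1.87 CPM in KO, against 1 count and 2 counts in WT. Its ratio was 35.2 (95% counting interval 11.7 to 174), and its edgeR adjusted p was 0.0358. In WT both genes lay below the floor of detection, so the size of these differences is known only within the counting interval.

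PTPN14, a protein tyrosine phosphatase that acts on the Hippo pathway (chromosome 1, 214522039 to 214725792), was expressed in both genotypes, at 21.3 and 22.6 CPM in KO and 7.74 and 8.00 CPM in WT (log2 1.49, SE 0.14, edgeR adjusted p = 0.0358). TRD-AS1, an antisense transcript of the T cell receptor delta locus (chromosome 14, 22849083 to 22951948), was at 13.4 and 15.7 CPM in KO and 4.03 and 3.37 CPM in WT (log2 1.99, SE 0.19, edgeR adjusted p = 0.0358). The authors' counting command sets no strand option, so reads of TRD-AS1 and of the genes on the opposite strand cannot be told apart. In KO, 2 genes were lower. HBA2, which encodes an alpha chain of hemoglobin (chromosome 16, 222846 to 223709), was at 48.5 and 39.2 CPM in KO, against 134 and 141 CPM in WT (log2 -1.64, SE 0.12, edgeR adjusted p = 0.0123). CCNL2, a cyclin found with splicing factors (chromosome 1, 1321091 to 1334708), was at 141 and 143 CPM in KO, against 237 and 256 CPM in WT (log2 -0.78, SE 0.08, edgeR adjusted p = 0.0448).

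**Figure D1:**
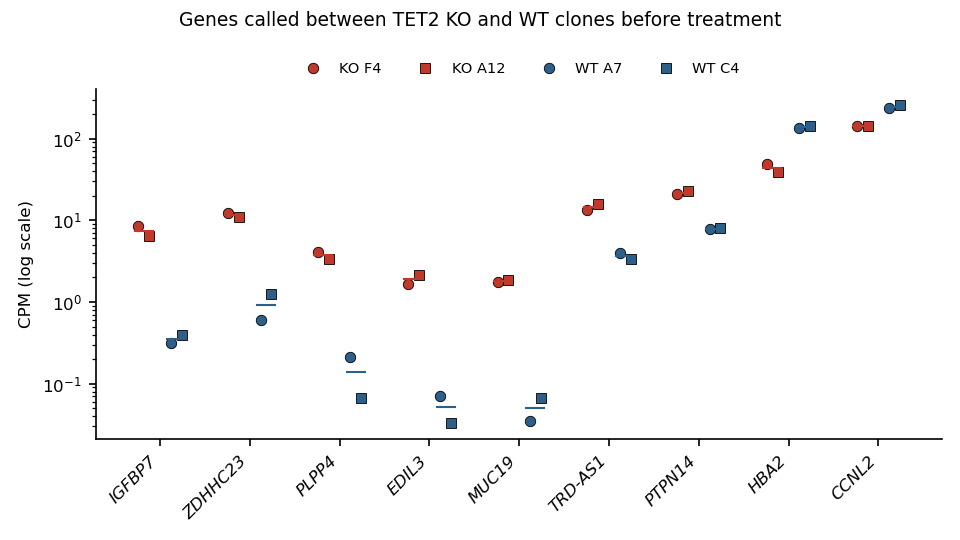
CPM on a log scale of the 9 genes called by edgeR in each library, with KO F4 and A12 (red) left of WT A7 and C4 (blue); short lines are the means of each genotype. The KO and WT points of each gene do not overlap, and EDIL3 and MUC19 lie below 0.1 CPM in both WT libraries.

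Since TET2 acts on methylated cytosines that precede guanines (CpG), the promoter windows of the called genes are shown for their CpG content. RefSeq windows of 300 bases (250 before to 50 after the start of the gene, GRCh38.p14) matched 7 of the 9 called genes, without IGFBP7 and HBA2. Across 35116 RefSeq windows the median was 14 CpG, with quartiles of 4 and 28. ZDHHC23 had 52 CpG, more than 99.2% of all windows, and PLPP4 had 33, more than 82.8%. EDIL3 had 16 and MUC19 had 0. Among the called genes that averaged under 1 CPM in WT, those with a window therefore ranged from CpG-dense windows to a window with none. CCNL2 had 47, PTPN14 had 42 and TRD-AS1 had 2. These are sequence descriptions, and no methylation was measured in these libraries. The 4 windows below run 5′ to 3′ on the strand of the gene, with each CpG in capitals.
ZDHHC23, chr3:113947763-113948062, plus strand: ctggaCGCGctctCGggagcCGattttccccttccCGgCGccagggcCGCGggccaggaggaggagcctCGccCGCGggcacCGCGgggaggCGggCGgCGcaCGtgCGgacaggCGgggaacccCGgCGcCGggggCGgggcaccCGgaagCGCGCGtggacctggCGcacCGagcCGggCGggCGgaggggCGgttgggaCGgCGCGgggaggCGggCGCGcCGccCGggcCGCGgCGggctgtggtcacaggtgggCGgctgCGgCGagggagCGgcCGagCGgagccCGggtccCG
PLPP4, chr10:120456704-120457003, plus strand: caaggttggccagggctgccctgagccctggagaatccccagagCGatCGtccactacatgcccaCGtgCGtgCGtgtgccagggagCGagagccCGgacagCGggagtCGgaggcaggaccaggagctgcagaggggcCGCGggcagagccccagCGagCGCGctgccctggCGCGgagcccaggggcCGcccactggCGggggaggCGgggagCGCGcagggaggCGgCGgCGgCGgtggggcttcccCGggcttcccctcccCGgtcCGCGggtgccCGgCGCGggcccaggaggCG
EDIL3, chr5:84384831-84385130, minus strand: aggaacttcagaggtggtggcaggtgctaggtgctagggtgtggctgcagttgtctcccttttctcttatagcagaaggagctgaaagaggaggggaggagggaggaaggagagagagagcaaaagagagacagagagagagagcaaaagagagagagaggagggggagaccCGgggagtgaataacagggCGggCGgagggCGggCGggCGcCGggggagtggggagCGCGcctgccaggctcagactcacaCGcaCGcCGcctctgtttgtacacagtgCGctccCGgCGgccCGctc
MUC19, chr12:40393144-40393443, plus strand: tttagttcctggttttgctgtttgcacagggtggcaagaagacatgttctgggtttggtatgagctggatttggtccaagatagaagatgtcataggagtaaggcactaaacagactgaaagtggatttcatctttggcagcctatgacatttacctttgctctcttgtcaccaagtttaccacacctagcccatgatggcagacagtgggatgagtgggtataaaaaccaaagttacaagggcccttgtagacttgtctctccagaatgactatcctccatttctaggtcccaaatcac

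The calls by edgeR were few next to those of DESeq2. DESeq2 called 277 of 17153 genes (1.61%), 146 higher and 131 lower in KO, and all 9 edgeR calls were among them. Another 143 genes had an edgeR adjusted p from 0.05 to 0.1, so that many genes lay just outside the threshold. Fitting all 25 libraries that passed quality control together, with 1 estimate of the spread, called 273 genes. DESeq2 and this joint fit shared 176 genes. That is 64.0% of the 275 DESeq2 calls among genes edgeR tested and 64.5% of the joint calls. All 176 had the same direction, but both fits take the fold from the same pre-treatment libraries, so this was fixed in advance. The joint fit also draws its spread from repeated harvests of the same clones. Of the 144 DESeq2 genes higher in KO that edgeR tested, 38 were under 1 CPM on average in WT. Among 16544 tested genes with distinct symbols, 3019 were under 1 CPM in WT and 2947 in KO. Of the 54 DESeq2 genes lower in KO outside the first 20 Mb of chromosome 1 (distal 1p), 7 were under 1 CPM in KO and 9 lay in the next 5 Mb.

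Among genes just outside the edgeR threshold, some are given here, chosen after their values were seen. HBA1, the second alpha-globin gene, was at 23.3 and 19.8 CPM in KO and 43.4 and 43.8 CPM in WT (log2 -1.0, SE 0.12, edgeR adjusted p = 0.0588, DESeq2 adjusted p = 5.84e-07). CDON, a cell surface receptor that takes part in Hedgehog signalling, was at 3.32 and 4.80 CPM in KO and 0.630 and 0.700 CPM in WT (log2 2.62, edgeR adjusted p = 0.0588). ST8SIA6, a sialyltransferase, was at 171 and 146 CPM in KO and 64.3 and 46.9 CPM in WT (log2 1.52, edgeR adjusted p = 0.0615). Its antisense transcript ST8SIA6-AS1 was at 14.9 and 11.9 CPM in KO and 1.86 and 0.900 CPM in WT, and without strand the pair is uncertain. PTPRF, a receptor tyrosine phosphatase, was at 222 and 225 CPM in KO and 118 and 138 CPM in WT (log2 0.82, edgeR adjusted p = 0.0588). CD22, a sialic acid-binding lectin, was at 17.3 and 26.9 CPM in KO and 5.22 and 6.67 CPM in WT (log2 1.91, edgeR adjusted p = 0.0615). DESeq2 called each of these genes.

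At the low end, CRABP1, which binds retinoic acid, had 17 and 14 counts in KO and 0 counts in both WT libraries, at least 10.7-fold higher in KO against a floor of 3 counts over the WT group. CHST9, a sulfotransferase, had 18 and 15 counts in KO and 0 in WT, at least 11.4-fold higher. DESeq2 called both, and edgeR did not (edgeR adjusted p = 0.0841 for CRABP1 and 0.0809 for CHST9). ALPL, the tissue-nonspecific alkaline phosphatase, lay the other way, at 0.273 and 0.257 CPM in KO and 1.72 and 1.5 CPM in WT (log2 -2.56, edgeR adjusted p = 0.0615, DESeq2 adjusted p = 0.0218).

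**Figure D2:**
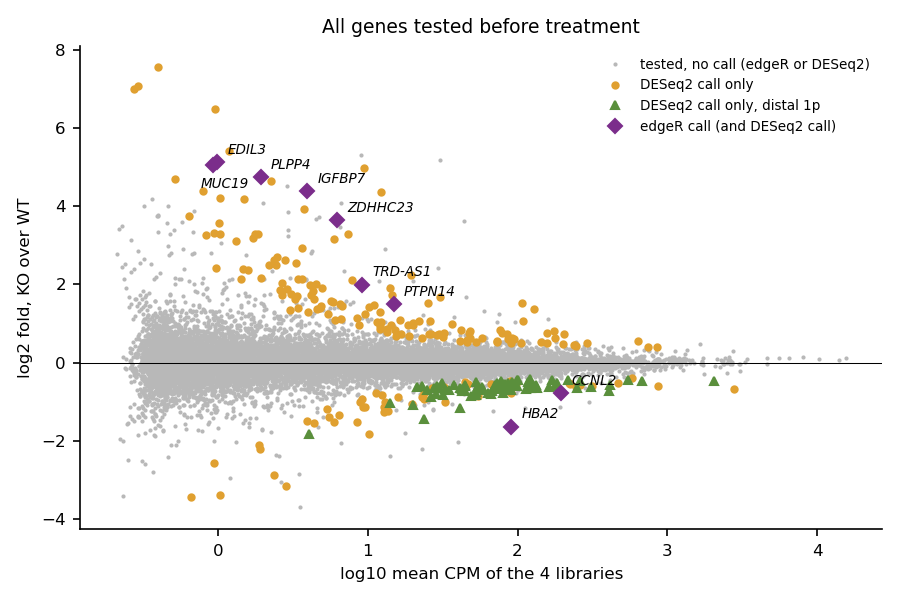
Log2 fold of KO over WT against log10 mean CPM for the 16560 genes tested. Purple diamonds are the 9 edgeR calls, orange points and green triangles are genes called by DESeq2 alone, and the green triangles of distal 1p form a band below 0.

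The hemoglobin genes lay below 0 together. Of 11 listed, 10 were tested (HBM had 0 counts in all 4 libraries), and all 10 had a log2 below 0, with a median of -1.08 against -0.0005 for all genes tested. HBA2 was called lower by edgeR, and HBA1 and HBA2 by DESeq2, against a background of 0.764% of genes called lower by DESeq2. For 8 of the 10, both KO values lay below both WT values, which 20.5% of all genes did. Summed over the list, the level was 178 and 108 CPM in KO F4 and A12, against 452 and 298 CPM in WT A7 and C4. The pair HBA1 and HBA2 is almost the same in sequence, and so is the pair HBG1 and HBG2, so how reads were split within a pair is uncertain. In bulk RNA, fewer hemoglobin-producing cells and less RNA per cell cannot be told apart.

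HBA2 and HBA1 had little spread within a genotype, and the other alpha-like genes were called by neither tool. The embryonic zeta-globin gene HBZ was at 1.81 and 2.31 CPM in KO, against 5.74 and 2.53 CPM in WT (log2 -0.99, edgeR adjusted p = 0.648). HBQ1, the theta-globin gene, was at 11.4 and 10.0 CPM in KO and 13.1 and 13.0 CPM in WT (log2 -0.27, edgeR adjusted p = 0.784). Both were separated between genotypes but neither passed the test.

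Several beta-like genes varied between clones of a genotype. HBG2, the fetal gamma-globin gene with the most counts of this cluster, was at 62.7 CPM in KO F4 and 25.9 CPM in KO A12, against 200 CPM in WT A7 and 60.5 CPM in WT C4, and the genotypes overlapped (log2 -1.54, SE 0.95, edgeR adjusted p = 0.844). HBG1, its near-identical copy, was at 3.01 and 0.587 CPM in KO and 10.9 and 2.07 CPM in WT and also overlapped. HBB, the adult beta-globin gene, was at 19.2 and 7.11 CPM in KO and 32.9 and 23.7 CPM in WT (log2 -1.09, edgeR adjusted p = 0.781). KO A12 was the lowest library for HBB, HBD, HBG1, HBG2, HBE1 and AHSP. HBD, the delta-globin gene, was at 5.47 and 2.57 CPM in KO and 7.39 and 8.00 CPM in WT, and HBE1, the embryonic epsilon-globin gene, at 0.957 and 0.587 CPM in KO and 1.82 and 1.70 CPM in WT. Neither overlapped, and neither passed the test. AHSP, the chaperone of free alpha chains, was at 1.54 and 0.367 CPM in KO and 2.38 and 1.70 CPM in WT.

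**Figure D3:**
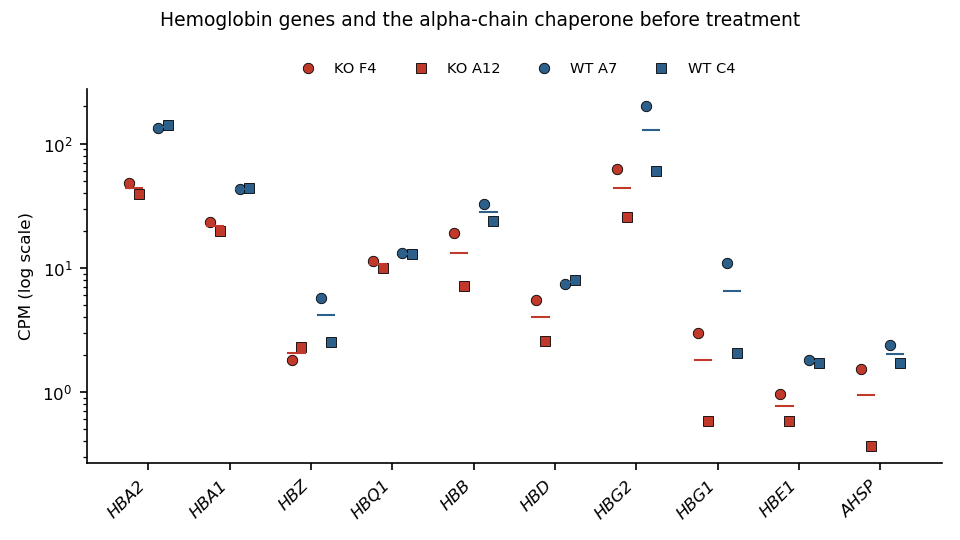
CPM on a log scale of the 10 tested hemoglobin list members in each library, KO left of WT within each gene; short lines are means. HBA2 and HBA1 separate by genotype with little spread, while HBG2 and HBG1 differ more between clones and overlap.

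The KO libraries of batch 2 bear on the alpha-globin result. Their labels mix a pre-treatment harvest with DMSO, and batch 2 has no WT library, so batch and genotype cannot be told apart in any comparison that uses them. There, HBA2 was at 145 CPM in F4 and 75.8 CPM in A12, and HBA1 at 40.5 and 41.6 CPM, so HBA2 of batch 2 F4 was as high as in the batch 1 WT libraries, and both HBA1 values were close to them. With these libraries added to KO, HBA2 had a log2 of -0.83 and was not called (edgeR adjusted p = 0.569), while the other 8 calls held. IGFBP7 was at 9.49 and 7.52 CPM, ZDHHC23 at 10.9 and 9.38 CPM and PTPN14 at 21.5 and 26.1 CPM in the batch 2 libraries, as in the KO libraries of batch 1.

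Other erythroid lists showed smaller shifts with no edgeR call. The red cell membrane list, which covers the spectrin skeleton, band 3 and blood group proteins, had a median log2 of -0.27 over 25 tested members, 19 of them below 0. ANK1, the ankyrin that ties spectrin to the membrane, was at 184 and 179 CPM in KO and 270 and 262 CPM in WT (log2 -0.54, SE 0.08, edgeR adjusted p = 0.0615) and was called lower by DESeq2 (adjusted p = 0.000347), as was SPTB, beta-spectrin (DESeq2 adjusted p = 0.0165). SPTB was at 10.7 and 5.32 CPM in KO and 18.7 and 16.7 CPM in WT. In this list DESeq2 called 2 of 25 lower, against 0.764% of all genes, and 0 higher. The anion exchanger SLC4A1 was at 0.239 and 0.147 CPM in KO and 0.630 and 0.700 CPM in WT, close to the floor. EPB41, a protein of the membrane skeleton, lay the other way, at 642 and 626 CPM in KO and 539 and 528 CPM in WT (log2 0.26, edgeR adjusted p = 0.301). It lies on chromosome 1 from 25 to 30 Mb, where the median log2 of coding genes was 0.37.

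Red cell enzymes had a median log2 of -0.25 over 21 members, with 0 called by either tool and 6 at an unadjusted edgeR p under 0.05, all 6 below 0, against 3.5% of all genes. HK1, a hexokinase, was at 598 and 639 CPM in KO and 761 and 781 CPM in WT, and CAT, catalase, at 116 and 92.7 CPM in KO and 158 and 135 CPM in WT. Heme synthesis and iron genes had a median of -0.07 over 19 members. ALAS2, the erythroid enzyme that starts heme synthesis, was at 3.25 and 2.42 CPM in KO and 7.88 and 4.87 CPM in WT (log2 -1.15, edgeR adjusted p = 0.274). TFRC, the transferrin receptor that brings in iron, was at 2569 and 1689 CPM in KO and 3074 and 3807 CPM in WT. DESeq2 called it lower (adjusted p = 0.0253), the 1 DESeq2 call in that list, against 0.764% of all genes. TFRC lies on chromosome 3 from 180 to 200 Mb. Coding genes there had a median log2 of 0.02 in KO F4 and -0.33 in KO A12, relative to the mean of WT.

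The 22 erythroid regulators had a median of -0.04 and 0 calls by either tool, with 5 at an unadjusted edgeR p under 0.05 (1 above and 4 below 0), against 7.98% of all genes. KLF1, a factor that activates globin genes, was at 91.6 and 79.7 CPM in KO and 127 and 112 CPM in WT (log2 -0.46, edgeR adjusted p = 0.228). BCL11A, a repressor of gamma-globin genes, was at 5.54 and 5.43 CPM in KO and 9.14 and 9.43 CPM in WT (log2 -0.74, edgeR adjusted p = 0.218). Neither gene overlapped between genotypes.

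Markers of mast cells, basophils and eosinophils lay mostly above 0. Of 18 tested, 16 had a log2 above 0, with a median of 0.45, and 2 were called higher by DESeq2 and 0 by edgeR, against 0.851% of genes called higher by DESeq2. FCER1A, a chain of the high-affinity IgE receptor, was at 95.1 and 102 CPM in KO and 52.7 and 65.2 CPM in WT (log2 0.76, SE 0.12, edgeR adjusted p = 0.0694, DESeq2 adjusted p = 0.000122). ENPP3, a basophil surface ectoenzyme, was at 2.87 and 5.39 CPM in KO and 1.72 and 0.800 CPM in WT (DESeq2 adjusted p = 0.0494). For 6 of the 18 both KO values lay above both WT values, which 16.9% of all genes did. Defining granule genes stayed low in both genotypes. CPA3, the mast cell carboxypeptidase, was at 3.76 and 1.17 CPM in KO and 1.12 and 2.13 CPM in WT, and TPSAB1, tryptase, at 0.684 and 1.14 CPM in KO and 0.911 and 0.900 CPM in WT. Summed over the list, levels were 1113 and 1138 CPM in KO, against 963 and 812 CPM in WT, of which GATA2, a progenitor factor also used in these cells, made up 809 and 847 CPM in KO and 746 and 590 CPM in WT.

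Of 14 megakaryocyte and platelet genes tested, DESeq2 called 2 higher, against 0.851% of all genes, and 0 lower. GP6, the platelet collagen receptor, was at 47.8 and 59.95 CPM in KO and 30.3 and 30.9 CPM in WT (log2 0.83, edgeR adjusted p = 0.0694, DESeq2 adjusted p = 0.000162). MMRN1, a carrier protein of platelet granules, was at 16.6 and 27.6 CPM in KO and 5.11 and 8.33 CPM in WT (log2 1.73, DESeq2 adjusted p = 6.63e-06). It lies on chromosome 4 from 80 to 100 Mb, where coding genes had a median log2 of 0.05 in KO F4 and 0.60 in KO A12, relative to WT. GP9, a chain of the platelet receptor for von Willebrand factor, lay the other way, at 0.137 and 0.367 CPM in KO and 0.770 and 0.80 CPM in WT (log2 -1.62, edgeR adjusted p = 0.440). Without overlap, 4 members were higher and 3 lower in KO, against 16.9% and 20.5% of all genes. ITGA2B, which defines the lineage, was at 594 and 609 CPM in KO and 641 and 612 CPM in WT. The list had a median of 0.20 and its summed level was 1145 and 1190 CPM in KO and 1115 and 1157 CPM in WT.

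Markers of other cell types stood as follows. MS4A3, a granulocyte-monocyte progenitor gene, was at 57.5 and 34.5 CPM in KO and 10.7 and 18.2 CPM in WT. DESeq2 called it higher (adjusted p = 1.16e-06), against 0.851% of all genes. The other 9 tested genes of that list were not called, and the list median was -0.02. CD3D, a T cell receptor chain, was at 9.67 and 36.8 CPM in KO and 0.525 and 1.73 CPM in WT (log2 4.36, SE 1.11, edgeR adjusted p = 0.539, DESeq2 adjusted p = 0.00922). CD3E and CD3G, its partners in the receptor, had at most 4 counts in any library. CD34, a progenitor marker, was at 356 and 279 CPM in KO and 243 and 290 CPM in WT and overlapped. The stem and progenitor list had 0 calls by either tool and a median of 0.08.

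Of 22 tested genes of GM-CSF, EPO and KIT signalling, which include ligands, receptors, kinases and inhibitors, DESeq2 called 3 higher, against 0.851% of all genes, and 0 lower. At an unadjusted edgeR p under 0.05, 7 lay above 0, against 4.49% of all genes, and 1 lay below 0. PIM2, a survival kinase induced by STAT5, was at 86.7 and 107 CPM in KO and 55.7 and 54.1 CPM in WT (log2 0.84, SE 0.12, edgeR adjusted p = 0.0615, DESeq2 adjusted p = 1.85e-05). SOCS3, a feedback inhibitor of cytokine receptors, was at 61.6 and 61.0 CPM in KO and 38.6 and 31.8 CPM in WT (log2 0.82, edgeR adjusted p = 0.0615, DESeq2 adjusted p = 7.86e-05). DUSP6, a phosphatase that turns off ERK, was at 13.1 and 21.3 CPM in KO and 7.60 and 6.47 CPM in WT (log2 1.31, DESeq2 adjusted p = 0.000456). The receptor chain CSF2RB, shared by GM-CSF, was at 285 and 308 CPM in KO and 272 and 289 CPM in WT and overlapped, and the median of the list was 0.10. In the batch 2 KO libraries SOCS3 was at 35.9 and 40.1 CPM, near the batch 1 WT values.

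Among secreted factors of the IGF, TGF-beta and WNT families, WNT11, a noncanonical WNT ligand, was at 171 and 200 CPM in KO and 85.8 and 59.3 CPM in WT (log2 1.37, SE 0.20, edgeR adjusted p = 0.0911, DESeq2 adjusted p = 3.70e-10). The median of the 18 tested members was 0.08, with IGFBP7 the 1 edgeR call, against 0.0543% of all genes. Among 20 tested palmitoyltransferases, ZDHHC23 was the 1 edgeR call, against the same 0.0543%. ZDHHC14 lay the other way, at 14.1 and 11.3 CPM in KO and 27.8 and 26.1 CPM in WT (log2 -1.07, edgeR adjusted p = 0.0615, DESeq2 adjusted p = 1.73e-05).

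Cell cycle and stress lists moved little. The 24 G1/S and 20 G2/M genes had medians of -0.05 and -0.05 with 0 calls by either tool. Of 19 p53 targets, DESeq2 called 1 higher, against 0.851% of all genes, and 0 lower. It was FDXR, a mitochondrial ferredoxin reductase, at 58.2 and 58.2 CPM in KO and 39.1 and 37.6 CPM in WT (DESeq2 adjusted p = 0.00125). CDKN1A, the p53-induced cell cycle inhibitor, was at 2.46 and 4.91 CPM in KO and 1.09 and 2.40 CPM in WT (edgeR adjusted p = 0.691). The list of histones had a median of 0.06 over 8 tested members. The interferon list had 21 tested members, 0 calls by either tool and a median of 0.11, and the antigen presentation, cholesterol, BCL2 family, imprinted, stress, D cyclin, stroma and mitochondrial lists also had 0 calls by either tool, with medians from -0.10 to 0.14.

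**Figure D4:**
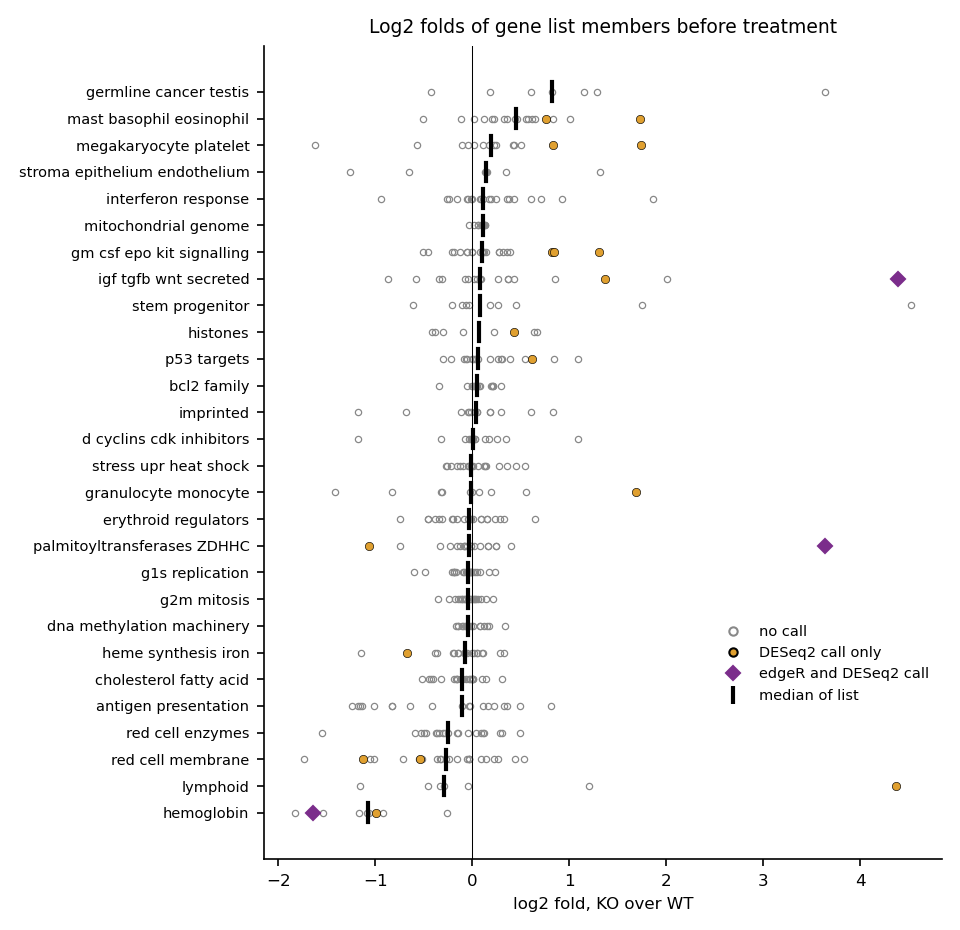
Log2 fold of KO over WT of each tested member of 28 gene lists, ordered by median (black bar). The hemoglobin list has the lowest median, at -1.08, and the 3 edgeR calls among list members (purple diamonds) are HBA2, IGFBP7 and ZDHHC23.

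Several of the largest differences did not pass the edgeR test, and in some of them the libraries of 1 genotype were unequal. The named genes by size were the 10 highest and 10 lowest log2 folds among coding genes with at least 5 CPM in the higher genotype and no overlap. Of these 20, 3 were edgeR calls, against 0.0543% of all genes. The 20 were picked by fold and lack of overlap in the same libraries, which favours calls. MAGEA3, a cancer-testis gene of the X chromosome that most adult tissues keep silent, was at 73.0 and 89.5 CPM in KO, against 12.7 CPM in WT A7 and 0.567 CPM in WT C4 (log2 3.63, SE 1.53, edgeR adjusted p = 0.779). Its neighbours MAGEA12 and CSAG1 had the same order of libraries, with MAGEA12 at 55.0 and 63.0 CPM in KO and 3.26 and 0.0667 CPM in WT. Members of this family are similar in sequence, so how reads were split between them is uncertain. EMC10, a subunit of the complex that inserts membrane proteins, was at 18.2 and 18.6 CPM in KO, against 1.09 and 0.10 CPM in WT (log2 4.98, SE 0.81, edgeR adjusted p = 0.229, DESeq2 adjusted p = 0.0177). The level of EMC10 was nearly equal in the 2 KO clones.

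C1orf21, a gene of unknown function, was at 7.04 CPM in both KO libraries and 0.770 and 0.167 CPM in WT (log2 3.92, SE 0.57, edgeR adjusted p = 0.0814, DESeq2 adjusted p = 2.71e-11). On the lower side, SNX20, a sorting nexin of blood cells, was at 0.547 and 0.587 CPM in KO and 2.28 and 8.03 CPM in WT (log2 -3.16, edgeR adjusted p = 0.269, DESeq2 adjusted p = 5.19e-05). BTN1A1, a butyrophilin, rested on 1 library, with 0.513 and 0.477 CPM in KO, 12.3 CPM in WT A7 and 0.733 CPM in WT C4. CYTL1, a cytokine-like protein first found in CD34+ cells, was at 5.30 and 3.37 CPM in KO and 9.46 and 15.8 CPM in WT (DESeq2 adjusted p = 0.000638). Over the germline and cancer-testis list, 7 of 25 members were tested, and 0 of them were called by either tool.

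Distal 1p stood below 0 as a block in KO F4 and in KO A12. Each chromosome was cut into segments of 20 Mb and the median log2 fold was taken for the 152 segments with at least 20 tested coding genes. The first segment of chromosome 1 had a median of -0.59, the lowest of all, with 151 of its 160 genes below 0. The middle 90% of segments lay from -0.07 to 0.09. The segment was at -0.56 in KO F4 and -0.62 in KO A12 relative to the mean of WT, and the 2 WT libraries differed there by 0.08. The next segment had a median of 0.04 but was not uniform. Bins of 5 Mb were added after these values were seen. From 20 to 25 Mb the median was -0.33, with 31 of 43 coding genes below 0. Of the 50 genes of any type tested there, DESeq2 called 9 lower, against 0.764% of all genes. From 25 to 30 Mb the median was 0.37, with 10 of 71 coding genes below 0. Of the 91 genes of any type tested there, DESeq2 called 13 higher, against 0.851% of all genes. From 30 to 35 Mb the median was 0.01. ALPL lies between 20 and 25 Mb.

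The segment held 77 of the 131 genes that DESeq2 called lower and edgeR tested, and 0 of the 144 called higher, among 230 genes tested there. CCNL2 is 1 of them. MTOR, the kinase of the mTOR complexes, was at 99.8 and 92.0 CPM in KO and 152 and 151 CPM in WT (log2 -0.64, edgeR adjusted p = 0.0615, DESeq2 adjusted p = 4.62e-05). ENO1, the glycolytic enolase, was at 1694 and 1685 CPM in KO and 2269 and 2489 CPM in WT (log2 -0.48, edgeR adjusted p = 0.0662). For genes of this segment, genotype and position cannot be told apart, and DNA copy number was not analysed here. TNFRSF25, a death-domain receptor, and CHD5, a chromatin remodeler, are among the 10 lowest named genes and lie in this segment.

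Other segments departed in KO A12 more than in KO F4. On chromosome 4 from 100 to 120 Mb, which holds TET2, the median was 0.34, with 0.04 in KO F4 and 0.56 in KO A12, so the higher TET2 level of A12 stands beside a higher level of its neighbours. The 7 segments of chromosome 4 from 60 Mb on were at -0.04 to 0.11 in KO F4 and 0.37 to 0.60 in KO A12. Distal 14q was at -0.05 in KO F4 and -0.62 in KO A12. Smaller departures were alike in both KO clones, at -0.10 in F4 and -0.11 in A12 on chromosome 19 from 20 to 40 Mb. On the first 20 Mb of X they were 0.16 and 0.10, where WT C4 minus A7 was -0.14. Both KO clones were also below the mean of WT in segments where the WT libraries differed more. There WT C4 was the lower WT library and lay near the KO clones, so the low values are mainly against WT A7. X from 140 to 160 Mb, which holds MAGEA3, was at -0.18 and -0.27, with C4 minus A7 at -0.49. The first 20 Mb of chromosome 12 was at -0.15 and -0.19, with C4 minus A7 at -0.53. The part of each named gene's difference that moves with its segment was not tested.

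**Figure D5:**
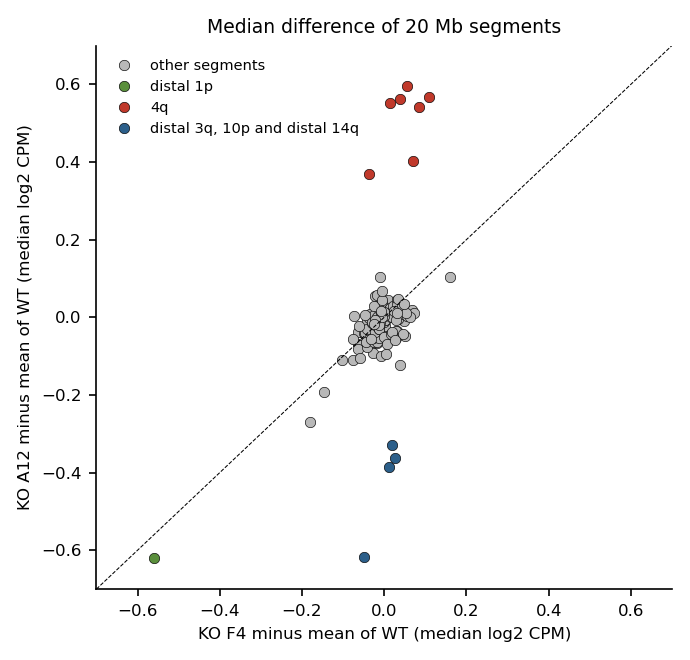
Median log2 CPM difference from the mean of the WT libraries for 152 segments of 20 Mb, KO F4 on the horizontal and KO A12 on the vertical axis; the dashed line marks equal values. Distal 1p is low in both KO clones, at -0.56 and -0.62, while 4q, distal 3q, 10p and distal 14q depart far more in A12 than in F4.

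The differences seen before treatment were also present in later harvests of the same clones. KO was compared with WT within Aza at 72 h (31 genes called, 0.190%), DMSO at 264 h (34, 0.208%) and Aza at 264 h (8, 0.0488%), with 2 libraries per genotype in each. All 9 genes had the same direction in each group, and 4, 5 and 1 of them were called there. By direction, the share of genes called higher and lower was 0.110% and 0.0796% for Aza at 72 h. It was 0.135% and 0.0735% for DMSO at 264 h. For the Aza group at 264 h it was 0.0366% and 0.0122%. Across all genes tested, 72.2% to 73.6% had the same direction, and the clones are the same ones, so this is no independent sample of genotypes. Over all other libraries that passed quality control, IGFBP7 ran from 4.12 to 12.0 CPM in 13 KO libraries (median 7.87) and from 0.109 to 1.11 CPM in 8 WT libraries (median 0.443). PTPN14 ran from 16.3 to 26.4 CPM in KO and from 6.61 to 8.98 CPM in WT. HBA2 overlapped, at 28.7 to 145 CPM in KO (median 75.8) and 120 to 404 CPM in WT (median 196).

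In a joint fit of the 16 libraries of these 4 conditions, the genotype effect before treatment was tested against that in each later group. The fit had no term for clone, though the same clones recur in every condition, so stable differences between clones counted as error. A lack of calls therefore does not show that the genotype effect was unchanged. Over 18029 genes, 0 were called by edgeR in each of the 3 tests, with 230, 214 and 258 genes at an unadjusted p under 0.05 against Aza at 72 h, DMSO at 264 h and Aza at 264 h. The smallest unadjusted p among the 9 genes was that of MUC19 against DMSO at 264 h (genotype log2 fold before treatment minus that later 2.91, SE 0.89, unadjusted p = 0.00601, adjusted p = 1.00).

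Several genes that edgeR did not call before treatment were called in later harvests. FCER1A was called higher in KO in each of the 3 later groups. In the DMSO group at 264 h it was at 123 and 128 CPM in KO and 61.7 and 60.2 CPM in WT (log2 1.04, SE 0.07, edgeR adjusted p = 0.0286). WNT11 was also called in each. In the Aza group at 264 h it was at 154 and 137 CPM in KO and 35.8 and 41.1 CPM in WT (log2 1.91, SE 0.11, edgeR adjusted p = 0.0170). GP6 was called higher in DMSO at 264 h (edgeR adjusted p = 0.0457) and in Aza at 264 h (edgeR adjusted p = 0.0414). The mast cell receptor chain, the WNT ligand and the platelet receptor thus kept the direction they had before treatment.

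EMC10 was called higher in DMSO at 264 h (log2 6.07, edgeR adjusted p = 0.0286) and in Aza at 264 h (log2 5.41, edgeR adjusted p = 0.00564). Among globin genes, HBZ was called lower in KO in Aza at 72 h (log2 -1.51, edgeR adjusted p = 0.0419) and in Aza at 264 h (log2 -1.96, edgeR adjusted p = 0.0234). HBA1 was called lower in DMSO at 264 h (log2 -1.36, edgeR adjusted p = 0.0457) and HBB in Aza at 72 h (log2 -1.33, edgeR adjusted p = 0.0355). HBA2 was called lower in both Aza groups, and in DMSO at 264 h it was at 53.03 and 33.9 CPM in KO and 163 and 215 CPM in WT (log2 -2.12, edgeR adjusted p = 0.0898).

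Clones of 1 genotype also differed from each other. KO F4 and A12 differed by 2-fold or more at 798 genes (4.82%), and WT A7 and C4 at 750 (4.53%). KO F4 differed from WT A7 at 812 genes (4.90%), and from WT C4 at 839 (5.07%). KO A12 differed from WT A7 at 1184 (7.15%) and from WT C4 at 1074 (6.49%). By median absolute log2 difference, KO F4 was closer to WT A7 (0.157) and WT C4 (0.169) than to KO A12 (0.178). The first principal component of the 3000 most variable genes took 51.7% of the variance and separated KO from WT, and the second took 28.5% and separated the clones within each genotype. A chi-square test of counts gave at least 16.8 for each degree of freedom in every pair, so no 2 libraries look like 1 library counted again.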

How the data were processed

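Gene expression was measured by RNA sequencing of TruSeq stranded mRNA libraries, per the labels' protocols. The authors deposited raw counts of read pairs for 57773 genes, made per the file headers with featureCounts 1.6.2 over GENCODE 19 exons with no strand option, so reads of antisense and overlapping genes cannot be told apart. The submitters' processing notes list hg19 (GRCh37), the aligner STAR 2.6.1d, trimming with cutadapt, FastQC, and DESeq2 beside the counter. Coordinates are from the deposited table. Symbols came from a table of current names (51996 IDs) and GENCODE 29 (342); 5435 IDs kept no symbol.

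With edgeR 4.0.16 in R 4.3.3, CPM was taken with TMM factors over the 25 libraries that passed quality control, and log2 CPM with a prior count of 2. KO was tested against WT with edgeR's quasi-likelihood test (robust, filterByExpr, genotype as the single term), and DESeq2 1.42.0 served as the alternative. The test was checked on simulated data. False calls stayed near the nominal rate when each gene's spread followed the trend, but exceeded it well when spreads were those estimated gene by gene, so an edgeR adjusted p under 0.05 from 2 clones against 2 is not controlled at that rate here. In the data, 1.65% of genes had a dispersion over 4 times the trend. The 28 gene lists matched 573 of 579 memberships.

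Genes named were every call, the 10 highest and 10 lowest folds described in the report, all hemoglobin genes, up to 3 genes of lowest p in each other list, and the TET and DNMT genes; further genes just outside the threshold or in distal 1p, and defining markers outside these rules, were chosen after their values were seen. The members and lists were chosen with earlier results of these data known. Alternatives tried were DESeq2, RLE scaling, other filters, a joint fit, leaving out each library, adding batch 2 and leaving out chromosome 1 below 30 Mb. The library of KO F4 in DMSO at 72 h was left out because its label gives a quality failure. Some items are not reported here.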

Additional observations from a re-analysis of the deposited data

How the results depend on the processing

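No paired analysis was possible because KO and WT are different clones, and a replicate number names a clone within 1 genotype only. Against 9 calls (7 higher, 2 lower in KO), DESeq2 gave 277 (146, 131), no filter 785 (463, 322), a filter of 1 CPM in 2 libraries 2 (1, 1), the joint fit of 25 libraries 273 (139, 134), and adding batch 2 KO libraries 86 (57, 29). Without chromosome 1 below 30 Mb there were 8 calls, 1 of them lower. Leaving out each library gave 49 to 463 calls, 36 to 275 higher and 10 to 188 lower; these fits assume that the lone library of a genotype varies like the other genotype. The 9 calls held in each of these but the 1 CPM filter, where 7 had edgeR adjusted p from 0.0653 to 0.0678, batch 2, where HBA2 was lost, and the fit without chromosome 1 below 30 Mb, which drops CCNL2. These fits reuse the libraries that gave the 9 calls, so holding them is no separate support. The causes were not tested.

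With batch 2 added, list medians (log2) were 0.019 for heme, -0.10 for red cell membrane, 0.029 for erythroid regulators, -0.083 for DNA methylation, 0.35 for IGF/TGF-beta/WNT, 0.0998 for D cyclins, 0.12 for BCL2, 0.33 for histones and 0.0085 for mitochondrial genes. DESeq2 gave 0.35 for mast cells, 0.32 for IGF/TGF-beta/WNT and 1.35 for germline genes. No filter gave 0.35 for mast cells and 0.32 for IGF/TGF-beta/WNT. The 1 CPM filter gave -0.044 for erythroid regulators, 0.18 for IGF/TGF-beta/WNT and 0.32 for histones, and the joint fit gave -0.053 for lymphoid genes.

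Leaving out each library moved medians over these ranges: hemoglobin -1.69 to -0.81, heme -0.0999 to -0.026, erythroid regulators -0.099 to 0.081, red cell enzymes -0.29 to -0.065, mast cell 0.26 to 0.49, megakaryocyte -0.050 to 0.26, stem -0.071 to 0.28, lymphoid -0.24 to -0.019, stroma -0.032 to 0.36, DNA methylation -0.062 to -0.016, IGF/TGF-beta/WNT -0.0046 to 0.29, G1/S -0.085 to -0.029, G2/M -0.11 to 0.020, D cyclins -0.047 to 0.12, p53 -0.067 to 0.17, cholesterol -0.19 to -0.039, germline 0.26 to 1.64, histones -0.21 to 0.41, distal 1p -0.62 to -0.53, and chromosome 4 from 100 to 120 Mb 0.051 (without KO A12) to 0.57. With batch 2 added the sign turned for HBQ1 (0.094), IDH1 (-0.012), H2AC20 (0.19), TET3 (-0.032) and DNMT1 (0.040). Leaving out each library, TET3 ran from -0.039 to 0.054 and DNMT3B from -0.14 to 0.26. Exon counts cannot show small deletions, and genes under about 0.1 CPM were not measurable at this depth.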
